A study of Mus musculus with 5 samples.

Results

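Splicing of 5 genes that encode neural cell adhesion molecules of the immunoglobulin superfamily, Ncam1, Nrcam, Chl1, Alcam and Cadm1, was compared between mouse cortical neurons depleted of PQBP1 and control neurons. The genes were chosen by their listing in the authors' deposited table of splicing changes, and the change between the groups put them there. They account for 11 of its 585 alternative splicing events, 27 of its 1402 junction entries and 5 of its 457 named genes. Cadm1 and Nrcam have 3 events each, Ncam1 and Alcam 2 each and Chl1 has 1. Since 4 junctions occur in 2 events, the 27 entries stand for 23 different junctions.

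PQBP1 is a nuclear protein that binds spliceosome components, and mutations in people lead to an X-linked form of intellectual disability. Neurons came from cortices of C57BL/6 mouse embryos at E16.5 and were studied at day 5 of culture. Both groups received lentivirus: 2 samples carried a hairpin RNA against PQBP1 (PQBP1 knockdown) and 3 a hairpin with no target (mock knockdown). The labels name no further hairpin or rescue, so effects of the hairpin and of PQBP1 loss cannot be told apart. Nor do the labels say whether samples came from separate cultures. The deposited table gives 1 p-value and 1 log2 fold (knockdown over control) per junction and nothing per sample, so depth, replicate spread and gene levels are unknown. Pqbp1 itself has 0 events there, so its depletion cannot be checked. Of 8 neuronal marker genes, Rbfox3 and Snap25 have an event, and of the 27 markers of astrocytes, the oligodendrocyte lineage, microglia, endothelium and neural progenitors none has one, which says nothing of their levels.

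These molecules sit in the neuronal membrane with immunoglobulin-like domains outside the cell, bind partners on neighbouring cells and guide neurite growth, fasciculation and synapse formation. Ncam1 encodes the neural cell adhesion molecule. Nrcam and Chl1 belong to the L1 family, whose members carry fibronectin type III repeats below the immunoglobulin domains and bind ankyrin through the cytoplasmic tail. Alcam encodes an adhesion molecule of growing axons that binds itself and CD6, and Cadm1 encodes SynCAM1, a synaptic adhesion molecule of the nectin-like family. Alternative exons in such genes often change the stalk between the adhesive domains and the membrane, the membrane anchor or the tail.

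The exons at issue are short, and the coding ones are shown here because they define what the protein gains or loses. Each is given 5′ to 3′ from the GENCODE transcripts on mm10, with the alternative exon in capitals and 20 bases of each neighbouring exon in lower case. Positions are 1-based.
Ncam1, 30 nt exon, chr9:49550540-49550569, minus strand: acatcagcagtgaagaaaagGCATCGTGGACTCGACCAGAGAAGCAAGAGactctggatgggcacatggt
Alcam, 39 nt exon, chr16:52268790-52268828, minus strand: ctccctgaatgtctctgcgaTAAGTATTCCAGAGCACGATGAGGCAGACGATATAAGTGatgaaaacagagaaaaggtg
Cadm1, 84 nt exon, chr9:47818734-47818817, plus strand: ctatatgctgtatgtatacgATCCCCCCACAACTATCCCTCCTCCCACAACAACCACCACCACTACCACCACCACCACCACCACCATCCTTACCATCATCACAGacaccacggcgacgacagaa
Cadm1, 33 nt exon, chr9:47829377-47829409, plus strand: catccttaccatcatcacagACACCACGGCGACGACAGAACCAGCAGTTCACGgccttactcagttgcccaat
Cadm1, 54 nt exon, chr9:47836717-47836770, plus strand: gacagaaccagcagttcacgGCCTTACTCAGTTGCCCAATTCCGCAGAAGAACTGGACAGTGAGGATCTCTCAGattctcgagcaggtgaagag
Nrcam, 12 nt exon, chr12:44597782-44597793, plus strand: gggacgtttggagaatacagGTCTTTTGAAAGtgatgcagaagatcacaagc
L1cam, 12 nt exon, chrX:73855652-73855663, minus strand, for comparison: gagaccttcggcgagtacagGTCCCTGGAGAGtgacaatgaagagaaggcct

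Of 7 alternative coding cassette exons in the listed events of these genes, 6 have a length that is a multiple of 3. These 6, in Ncam1, Alcam, Cadm1 and Nrcam, add 10, 13, 28, 11, 18 and 4 codons in the order of the sequences above and keep the reading frame. The exception is an exon of 62 nt in Nrcam, described with that gene. GC content varied widely among them, from 33.3% in the 12 nt exon of Nrcam to 60.6% in the 33 nt exon of Cadm1. In the 84 nt exon of Cadm1, 85.7% of bases are A or C, with long runs of CCA and ACC.

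In the text below, a junction is said to rise or fall when its p in the table is under 0.05. That p is unadjusted and was also the basis on which events were listed, since the lowest p of each of the 585 events is under 0.05. Of the 26 member junction entries with a p, 12 rose, against 37.8% of the 1389 entries with a p in the whole table, and 10 fell, against 38.4%. In either direction 22 passed, beside 76.2% of the table. Because the same contrast chose the genes, nothing is read from these shares. Events were described by the change of the ratio between 2 junctions, computed here from their deposited folds. For events with 2 junctions, the share of each junction in each group was also worked out, taking both uses to add up to the whole. Such implied shares cover the listed junctions only and carry no error estimate. For events with 3 or more junctions, the ranges of shares given below take the folds as exact and carry no error estimate either. With the stricter p under 0.01, 13 junctions of 6 events pass. The 5 events that then lose their call are the proximal last exon of Ncam1, exon 2 of Nrcam, the first exons of Chl1, the upstream side of the Alcam exon and the junctions that leave the 84 nt exon of Cadm1.

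**Figure D1:**
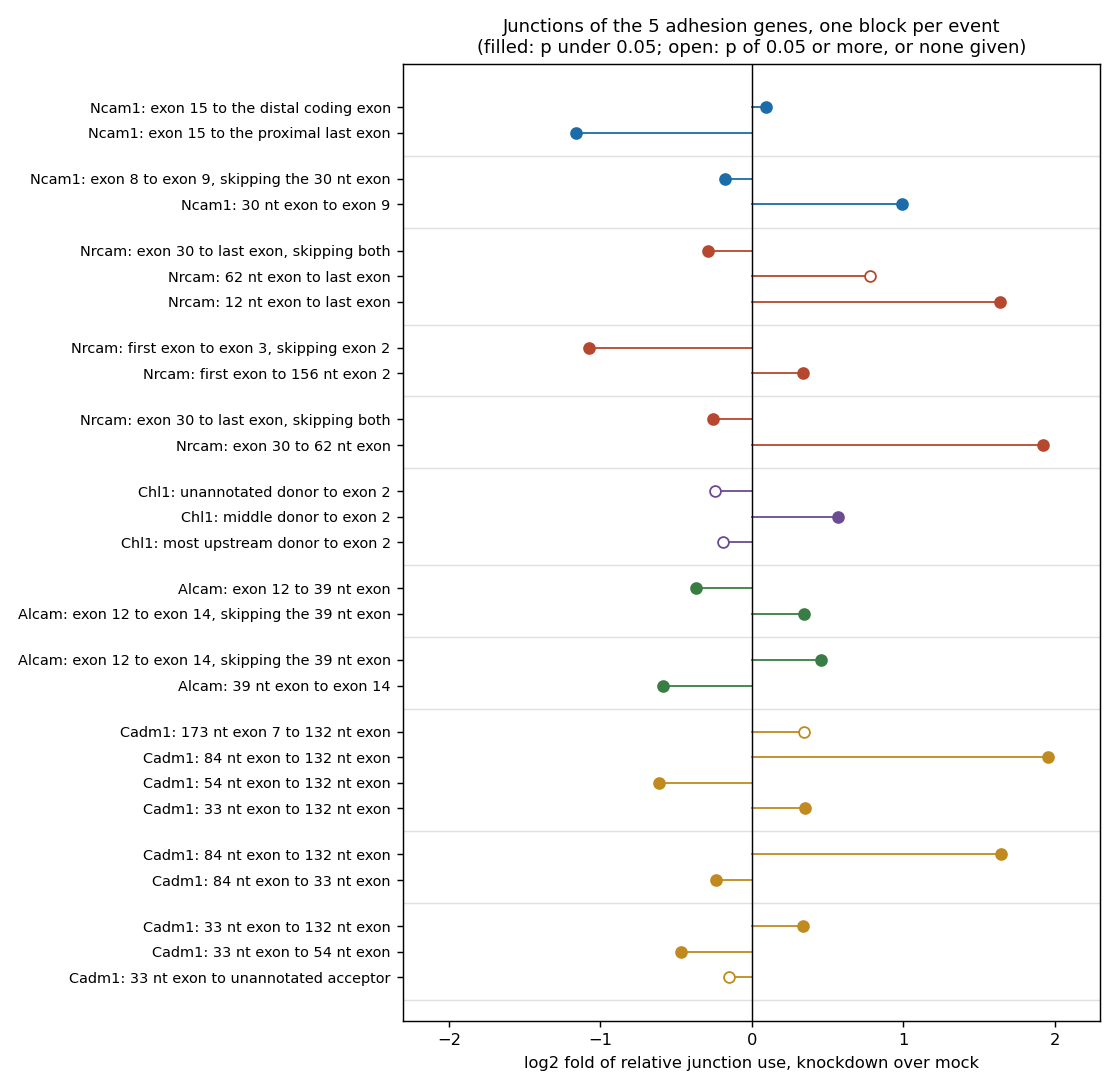
Log2 fold of relative use (knockdown over mock) for the 27 junction entries of the 5 genes, from the authors' deposited table, with events separated by grey lines. Filled points have p under 0.05 and open points do not or have no p; the longest bars to the right belong to the 84 nt exon of Cadm1 and to the 62 nt and 12 nt exons of Nrcam.

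Ncam1 changed at the exon that modifies its immunoglobulin domains and, with a p that does not pass 0.01, at the exon that sets its membrane anchor. The 30 nt exon lies between exons 8 and 9 of the annotated transcript Ncam1-201 and inserts 10 codons after codon 354 of 725. In length and place it is the exon known as VASE, which lies in the fourth immunoglobulin domain. VASE use is known to increase as the brain matures, and NCAM with VASE is known to promote neurite outgrowth less well. In the authors' deposited table the junction from this exon to exon 9 rose with a log2 fold of 0.99, and the junction that skips it fell with -0.18 (p = 0.00134 for both). Inclusion over skipping was thus 2.25 times that of the mock knockdown. The implied share of inclusion was 10.5% in mock and 20.96% in knockdown neurons, so the exon remained the minority choice in both groups. The junction into the exon from exon 8 is not among the listed ones, so the change is seen from the downstream side only.

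The second Ncam1 event concerns the end of the transcript. From exon 15 the transcript continues either to a proximal last exon of 305 nt (chr9:49517278-49517582, minus strand) or to a coding exon of 208 nt farther downstream. The proximal exon closes the reading frame of Ncam1-201, a protein of 725 codons, after 74 coding bases. That product is the short NCAM form known as NCAM-120, held in the membrane by a glycosylphosphatidylinositol anchor, whereas the distal exon leads to the transmembrane forms NCAM-140 and NCAM-180. The coding bases of the proximal exon are shown because they replace the transmembrane segment; they are in capitals, after the last 20 bases of exon 15 and before the stop codon.
Ncam1, proximal last exon, coding part: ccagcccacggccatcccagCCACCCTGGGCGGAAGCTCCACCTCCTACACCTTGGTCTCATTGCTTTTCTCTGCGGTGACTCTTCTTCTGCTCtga

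The junction to the proximal exon fell with a log2 fold of -1.16, and the one to the distal exon rose with 0.09 (p = 0.0146 for both), in the authors' deposited table. Proximal over distal use was 0.420 times the mock value. The implied share of the proximal exon was 10.7% in mock and 4.77% in knockdown neurons. The level of this share is loosely fixed, because the distal fold is close to 0. With both folds moved apart by 0.05 it would be 5.25% in mock and 2.43% in knockdown neurons. With both folds moved together by 0.05 it would be 15.4% in mock and 6.67% in knockdown neurons. NCAM-120 is known to be made largely by glia, and the part of any change in glial content was not tested, since the table gives no levels.

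Nrcam had 2 of its 3 events at its 3′ end, in the stretch that encodes the cytoplasmic tail. Exon 30 of Nrcam-201 (44590981 to 44591059 on chromosome 12) is joined to the last exon directly, or by way of an exon of 62 nt (44594140 to 44594201), an exon of 12 nt (44597782 to 44597793), or both. Seen from exon 30, the junction to the 62 nt exon rose with a log2 fold of 1.92, and the direct one to the last exon fell with -0.25 (p = 7.79e-05 for both) in the authors' deposited table. Their ratio was 4.52 times that of the mock knockdown. This was the 30th largest change among 408 events with 2 junctions and the 8th smallest p. Of these 2 junctions, the one to the 62 nt exon had an implied share of 5.47% in mock and 20.7% in knockdown neurons. A junction from exon 30 to the 12 nt exon, as annotated in Nrcam-205, is not listed and does not enter this share.

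The 62 nt exon is annotated in the transcript Nrcam-215, which is classed as a target of nonsense-mediated decay, the pathway that removes RNAs with an early stop codon. Its length is not a multiple of 3. It is inserted after codon 1177 of the 1256 in Nrcam-201 and 2 bases of the next codon, and in that frame a stop codon begins at its base 5, as the sequence shows. The stop codon is in capitals, after the last 20 bases of exon 30 and the first 4 bases of the 62 nt exon.
Nrcam, 62 nt exon, first bases, chr12:44594140-44594201, plus strand: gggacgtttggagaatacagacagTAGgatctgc

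Seen from the last exon, the junction from the 12 nt exon rose with a log2 fold of 1.64 (p = 0.000997), and the direct junction from exon 30 fell with -0.29 (p = 0.000401), in the authors' deposited table. Use of the 12 nt exon over direct splicing was 3.79 times the mock value. A junction from the 62 nt exon straight to the last exon, which is not annotated, had a log2 fold of 0.78 with p = 0.181 in the authors' deposited table. The folds allow the 12 nt exon at most 7.89% of the use of this acceptor in mock and at most 24.5% in knockdown neurons. They leave the direct junction with 79.9% to 92.1% in mock and 65.4% to 75.5% in knockdown. The lower limits of 79.9% and 65.4% rest on the fold of the junction from the 62 nt exon, whose p is not under 0.05.

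Whether the 12 nt exon was reached from exon 30 or from the 62 nt exon cannot be read from the listed junctions. In the first case it adds 4 codons after codon 1177, as in the annotated transcript Nrcam-205. In the second it lies behind the stop codon, as in Nrcam-215. The 12 nt exon of L1cam, the founding member of the family, matches it at 8 of 12 bases and also interrupts a codon after its second base. In L1 this exon is known to be used in neurons and to complete a tyrosine-based signal for endocytosis. L1cam and Nfasc have no event in the table.

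At the 5′ end of Nrcam, the change lay in sequence that Nrcam-201 leaves untranslated. Exon 2, of 156 nt (chr12:44387900-44388055), lies 58803 nt downstream of the first exon and, in Nrcam-201, before the start codon. In the authors' deposited table the junction from the first exon to exon 2 rose with a log2 fold of 0.34, and the one that skips to exon 3 fell with -1.07 (p = 0.0335 for both). The skipping junction spans 127528 nt, the longest intron among the members' junctions. Inclusion over skipping was 2.66 times the mock ratio, a smaller change of ratio than at the 62 nt exon. The implied share of inclusion was 66.7% in mock and 84.1% in knockdown neurons, a difference of 17.5 points beside 15.3 points at the 62 nt exon. A junction leaving exon 2 is not listed, so the change is seen from the upstream side only. An annotated exon of 2398 nt, in a retained-intron transcript, begins at the same acceptor. All 3 Nrcam events thus moved towards use of the alternative exons.

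Chl1, the close homologue of L1 that shapes the migration and positioning of cortical neurons, had a single event, among its first exons. Donors at 3 positions were joined to exon 2 (chr6:103560046-103560115), which is untranslated in the annotated transcripts. From upstream to downstream these donors lie at 103511149, 103511474 and 103512157. The middle donor, the end of the first exon of Chl1-205, rose with a log2 fold of 0.57 (p = 0.0248) in the authors' deposited table. The upstream donor, used by Chl1-201, had a log2 fold of -0.19 (p = 0.164), and the downstream donor, which is not annotated, had -0.24 (p = 0.371) in the authors' deposited table. Middle over upstream donor use was 1.69 times that of the mock knockdown. Taken as exact, the folds place the share of the middle donor between 20.6% and 24.5% in mock and between 30.6% and 36.3% in knockdown neurons. These ranges are no error estimate. They also rest on the upstream and downstream folds, neither of which has p under 0.05. Exon 2 and all 3 donors lie upstream of the annotated start codon.

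Alcam moved the other way from Ncam1 and Nrcam, towards skipping of a coding exon. Its 39 nt exon, exon 13 of 16 in Alcam-201, inserts 13 codons after codon 502 of the 570 in Alcam-207, the annotated transcript without it. This is the stalk next to the membrane on the outer side, and a human isoform without a corresponding stretch is known to be shed more readily from the cell surface. The exon was listed from both sides. In the authors' deposited table the junction from the exon to exon 14 fell with a log2 fold of -0.58, and the skipping junction rose with 0.45 (p = 0.00760 for both). From the upstream side, the junction into the exon fell with -0.37 and the skipping junction rose with 0.34 (p = 0.0415 for both), again in the authors' deposited table.

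Inclusion over skipping was 0.487 times its mock value when read at exon 14 and 0.610 times when read at exon 12. Implied inclusion was 52.7% in mock and 35.1% in knockdown neurons by the downstream junctions, and 54.03% and 41.7% by the upstream ones. Both sides gave close to equal use of the long and the short form in mock neurons, and both share the skipping junction, so they are not independent. The difference in implied inclusion, knockdown minus mock, was -17.5 points by the downstream junctions and -12.3 points by the upstream ones.

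**Figure D2:**
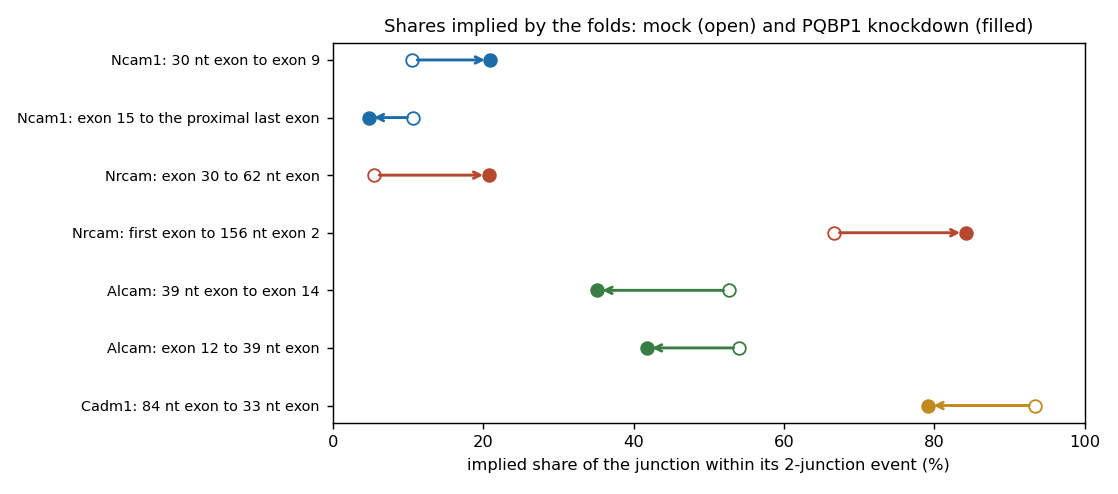
Implied share (%) of the nearer junction in the 7 member events with 2 junctions, in mock (open) and PQBP1 knockdown (filled) neurons, joined by arrows. The arrows of the Ncam1 30 nt exon and of both Nrcam events point right, and those of the Ncam1 proximal last exon, Alcam and the Cadm1 84 nt to 33 nt junction point left.

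Cadm1 changed in the exons that set the length of its stalk, and use of the 54 nt exon fell. Between exon 7 (173 nt) and an exon of 132 nt, up to 3 coding exons of 84, 33 and 54 nt are spliced in, each after codon 334 of the 417 in Cadm1-201, the annotated form with none of them. Only Cadm1-209 carries all 3. The stalk encoded here lies between the immunoglobulin domains and the membrane and is known to carry sugar side chains. Seen from the 132 nt exon (47848167 to 47848298 on chromosome 9), 4 exons compete as the upstream partner.

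The junction from the 54 nt exon fell with a log2 fold of -0.61 (p = 6.68e-05) in the authors' deposited table. Junctions that leave out the 54 nt exon moved the opposite way. That from the 33 nt exon rose with 0.35 (p = 0.00975) and that from the 84 nt exon with 1.95 (p = 0.00919), in the authors' deposited table. The junction that leaves out all 3 exons, from exon 7, had a log2 fold of 0.34 with p = 0.430 in the authors' deposited table. Relative to the 54 nt exon, use of the 33 nt exon as the last stalk exon was 1.95 times and use of the 84 nt exon 5.92 times the mock ratio. The folds allow the 54 nt exon between 43.5% and 89.3% of the acceptor's use in mock and between 28.5% and 58.4% in knockdown neurons. The lower limits of 43.5% and 28.5% rest on the fold of the junction from exon 7, whose p is not under 0.05. The junction from the 84 nt exon can hold at most 10.7% in mock and at most 41.6% in knockdown neurons.

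The other 2 Cadm1 events look at these exons from the upstream side. From the 33 nt exon, the junction to the 54 nt exon fell with a log2 fold of -0.47, and the one to the 132 nt exon rose with 0.33 (p = 0.00489 for both) in the authors' deposited table. Another junction of that event runs to an acceptor that is not annotated and has a log2 fold of -0.15 and no p in the authors' deposited table. Skipping over inclusion of the 54 nt exon was 1.74 times the mock value. From the 84 nt exon, the junction to the 33 nt exon fell with -0.24, and the one straight to the 132 nt exon rose with 1.64 (p = 0.0185 for both), in the authors' deposited table. Its ratio of the shorter to the longer junction was 0.272 times the mock ratio, the 76th largest change of 408. Implied use of the 84 nt to 33 nt junction was 93.3% in mock and 79.2% in knockdown neurons. Only junctions that end in the 132 nt exon and come from the 84 nt or 33 nt exon rose, and all 3 that enter or leave the 54 nt exon or link the 84 nt to the 33 nt exon fell.

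**Figure D3:**
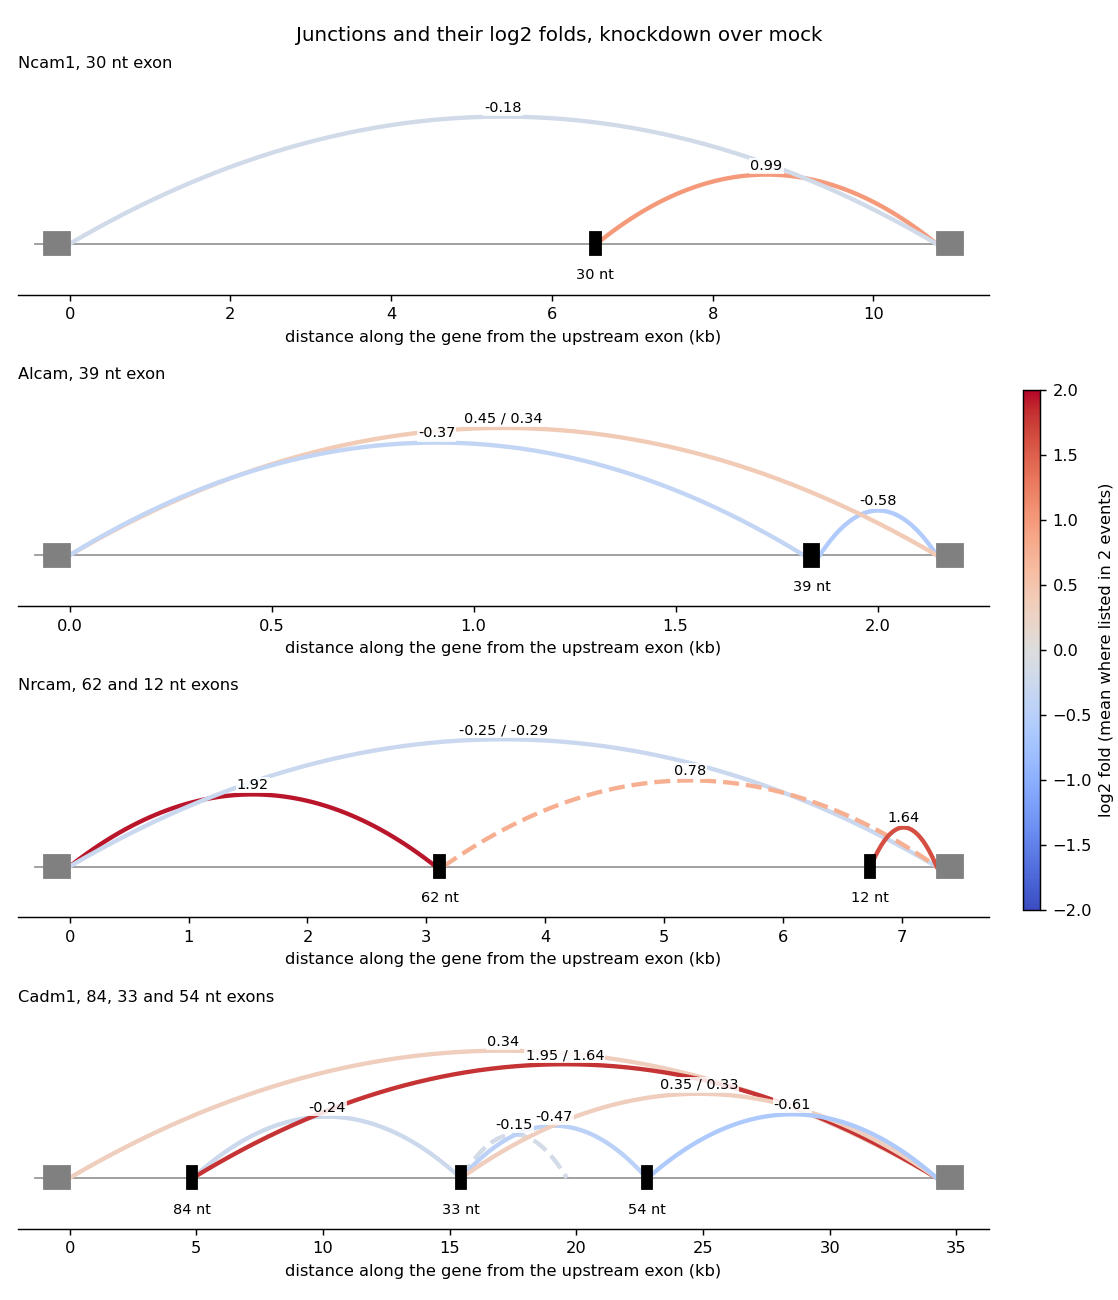
Junctions of Ncam1 (30 nt exon), Alcam, Nrcam (3′ end) and Cadm1 drawn along the gene in the direction of transcription, with distance in kb from the upstream exon and arcs coloured and labelled by log2 fold (knockdown over mock; 2 numbers where a junction is listed in 2 events). Black boxes are the alternative exons and grey boxes the neighbouring exons, drawn wider than scale, arc height has no unit, and dashed arcs are not annotated; inclusion arcs are red in Ncam1 and Nrcam, and arcs to the exon are blue in Alcam and at the 54 nt exon of Cadm1.

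Junctions listed in 2 events gave 4 comparisons of the same junction against different alternatives. The log2 folds were 1.95 and 1.64 for the Cadm1 junction from the 84 nt to the 132 nt exon, and 0.35 and 0.33 for that from the 33 nt exon, in the authors' deposited table. They were -0.25 and -0.29 for the direct Nrcam junction and 0.45 and 0.34 for the Alcam skipping junction, in the authors' deposited table. All 4 kept their sign, with the widest gap, 0.31, at the Cadm1 junction from the 84 nt exon. Both entries describe 1 junction in the same samples, so these are not replicates.

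Of the 27 member entries, 23 equal an annotated intron (85.2%), against 84.1% of all 1402. The 4 that do not are the Nrcam junction from the 62 nt exon to the last exon, the Cadm1 junction from the 33 nt exon to an unannotated acceptor, and the middle and downstream Chl1 junctions. Of these, only the middle Chl1 junction had p under 0.05.

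In size, the member events with 2 junctions lay within the range of the table. Their median absolute change of ratio was 1.25 on the log2 scale (0.71 to 2.18, 7 events), beside 1.36 over all 408 events with 2 junctions. The nearer junction was higher in 3 and lower in 4 of them, and higher in 175 and lower in 233 of all. The events ranked from 30th, the 62 nt exon of Nrcam, to 377th, the upstream side of the Alcam exon. No test was made, since the same fold changes led to the listing.

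**Figure D4:**
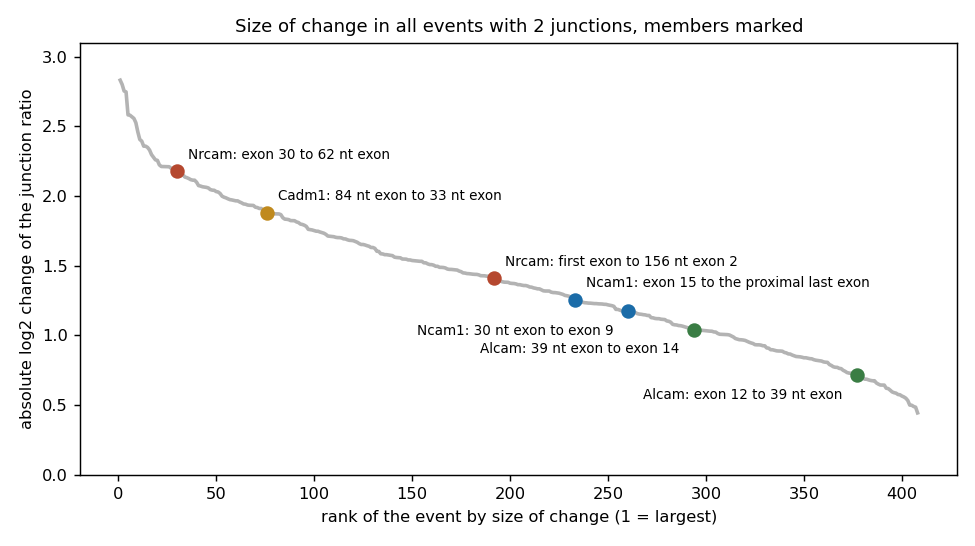
Absolute log2 change of the junction ratio (y axis) against its rank among the 408 events with 2 junctions (x axis, grey line), with the 7 member events as coloured points. The members are spread from rank 30 to rank 377.

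Other members of these families were mostly not listed. Of 56 further genes for neural adhesion molecules of the immunoglobulin superfamily, among them L1cam, Nfasc, Ncam2, the contactins and the IgLON family, 1 has an event. It is Cadm3, a nectin-like relative of Cadm1, in which an exon of 102 nt on chromosome 1 (173349022 to 173349123) had a log2 fold of 0.21 for the nearer junction and -0.28 for the farther one (p = 0.0472 for both) in the authors' deposited table. That is a ratio 1.40 times the mock ratio. Of 40 intracellular partners, linkers and processing enzymes of these molecules, 2 have events. Cask, a scaffold that binds the tail of SynCAM proteins, included an exon of 36 nt on chromosome X (13550947 to 13550982) at 2.28 times and 1.91 times the mock ratio from its 2 sides. Another Cask event lay between acceptors close to each other, and its farther junction is not annotated. The event had a nearer over farther ratio 1.95 times that of the mock knockdown (p = 0.0332 in the authors' deposited table). Epb41l1, a linker of membrane proteins to the actin and spectrin skeleton, had an event of 3 junctions with log2 folds of 1.04 (p = 2.99e-05), -0.48 (p = 6.87e-05) and 0.08 (p = 0.895) in the authors' deposited table. In its other event, the nearer junction, at an exon of 84 nt, fell with -0.14 and the farther one rose with 0.56 (p = 0.0459 for both) in the authors' deposited table. That is 0.616 times the mock ratio, and the farther junction is not annotated. A gene without an event may be unchanged, too weakly covered or filtered out, which the table does not tell apart. The number of genes covered by the reads is unknown, so nothing is read from these counts.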

How the data were processed

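PolyA RNA was extracted on RNeasy columns and made into libraries with the PrepX mRNA kit, per the labels' protocols. Reads were aligned to mm10 with TopHat2 2.0.4, per the submitters' processing notes. Counting of junctions, test, filters and any pooling of replicates: not given in the sources used here. Per the file headers, the authors deposited each junction's position, p-value and log2 fold of knockdown over control; 13 of 1402 p-values are empty. The header names no adjustment. The fold was read as a change in use relative to the other junctions of an event, because in all 408 events with 2 junctions the folds have opposite signs and the p-values are equal (relative tolerance 1e-06). A fold measured so does not reflect gene level.

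Adding 1 to each deposited start and end gave introns, of which 1179 equal an intron of GENCODE M21, against 0 without the shift of the end. Exons, reading frames and sequences were taken from that annotation and its transcripts. Where several annotated exons shared a splice site, the shortest was used. Implied shares follow from requiring the shares to add up to the whole in both groups, and events with 3 or more junctions give a range by linear programming (Python 3.11.15, scipy 1.17.1). The share calculation for 2 junctions recovered the known shares in 979 of 979 simulated pairs (tolerance 1e-09). Those pairs were free of noise and made by the same relation, so this checks the arithmetic only. It cannot show whether the deposited folds are plain ratios of shares. No sample-level test was possible and no test of the members was made. Members and gene lists were chosen with earlier results of these data known. Every junction of the 5 genes was described, and each listed gene with an event was named. The lists were matched by symbol and RefSeq synonyms. Alternatives tried were stricter thresholds, adjustment over the table, single junctions, shifted folds, annotated junctions alone, each exon once and the longest exon.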

Additional observations from a re-analysis of the deposited data

How the results depend on the processing

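The number of member junctions past the threshold depended on it: 22 had p under 0.05, 13 had p under 0.01, and 13 passed Benjamini-Hochberg adjustment over all junctions with a p in the table, which holds selected events only. The same 13 passed both. Of the 7 events with 2 junctions, all have annotated junctions only, so that filter removed none. With each exon counted once, 3 were higher and 3 lower. Of 30 recomputed values of single events, 23 moved by at most 1.5 times and 7 moved more. None of these recomputations could turn a sign. The nearer junction alone gave log2 changes smaller by more than 1.5 times for Alcam (-0.58 and -0.37), the Cadm1 84 nt to 33 nt junction (-0.24) and Nrcam exon 2 (0.34). Because the folds of an event with 2 junctions have opposite signs, 1 fold alone is always smaller than their difference. These values, and their part of the count above, therefore do not test the ratio. Weighting the folds to balance on the log scale, added after seeing the data, moved no averaged share by more than 1.43 points. The longest annotated exon at the Alcam and Nrcam exon 2 sites (272 and 2398 nt) occurs in retained-intron transcripts. Treating the commoner junction as fixed gives no share and has no value. No paired analysis was possible because the table holds no value per sample, and for the same reason leaving out a replicate was not run. Depth is unknown.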
